A study of Homo sapiens with 9 samples.

Results

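The 8 enzymes described here make, use or interconvert glutamine, glutamate and proline: GLS2, GLUL, GLUD1, GOT1, GOT2, OAT, ALDH18A1 and PYCR1. They were taken by symbol, for their function, from the 19907 genes of the deposited count table, and all 8 were present in it. Gene expression was measured by RNA sequencing of total RNA from wild-type HUES8 cells, a long-used line of human embryonic stem cells, driven to definitive endoderm, the germ layer behind gut, liver and pancreas. In all 9 libraries the cells had been given 100 ng/mL activin A, 50 ng/mL Wnt-3a and 0.2% fatty-acid-free albumin over 2 days, and then activin A without Wnt-3a. There were 3 groups of 3 libraries: DE, differentiated with no inhibitor, C75, in which fatty acid synthase was inhibited during differentiation, and ETO, in which fatty acid oxidation was inhibited. Inhibitor dose, time of addition and day of harvest are not in the labels. All libraries are of 1 cell line. Whether replicate libraries stem from separate cultures is not stated, so p-values reflect the spread among these libraries alone, and that spread may be technical.

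Glutamine enters cells through membrane carriers and is deaminated to glutamate by glutaminases such as GLS2, while glutamine synthetase, GLUL, runs the opposite step. Glutamate then passes its carbon to the tricarboxylic acid cycle as alpha-ketoglutarate, either through glutamate dehydrogenase, GLUD1, or through transaminases such as the aspartate aminotransferases GOT1 in the cytosol and GOT2 in mitochondria. It is also the start of proline: ALDH18A1 reduces it to pyrroline carboxylate, which OAT can also make from ornithine, and PYCR1 reduces that to proline. Pluripotent stem cells are known to draw heavily on glutamine, both for this cycle and for nitrogen.

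Library totals ran from 17379711 to 21510997 counts, and between 15948 and 16472 genes had at least 1 count. The 8 definitive endoderm markers were present in every group, with a summed level of 9821 to 10221 CPM (counts brought to the same library size by edgeR's TMM factors) in DE, 15433 to 15791 in C75 and 5219 to 5346 in ETO. All 8 were called higher in C75 than in DE and all 8 lower in ETO, a call being an edgeR adjusted p below 0.05 over all 14177 genes tested. Of other cell types, the 3 pluripotency markers summed to 346.6 to 393.8 CPM in DE, 82.3 to 87.5 in C75 and 1312 to 1368 in ETO, with all 3 called lower in C75 and higher in ETO. The 5 mesoderm markers summed to 151.8 to 160.6, 92.5 to 94.7 and 391.3 to 400.4 CPM in the same order. The 3 primitive streak markers summed to 748.3 to 778.6, 966.4 to 1047 and 842.1 to 876.4 CPM. Of these, 2 were called higher and 1 lower than DE in C75, and likewise in ETO. Visceral endoderm and liver markers summed to 23.2 to 25.7, 22 to 25.4 and 8.42 to 10.2 CPM, with AFP and TTR at 0 in C75. Ectoderm and neural markers summed to 383.3 to 403.9, 294.6 to 309.4 and 822.4 to 849.2 CPM, with SOX1 at 0 in C75, and trophoblast markers to at most 33.7 CPM in any library. The ectoderm and neural sums hide a split. Of the 2 such markers tested, 1 was called higher and 1 lower in C75, and likewise in ETO. Marker levels differed between the groups compared, but not always in 1 direction within a list. The part of the markers in the results that follow was not tested. In bulk RNA, fewer cells of a type and less RNA per cell cannot be told apart, which holds for every level given here.

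The 8 genes lie on the minus strand of GRCh38 in GENCODE release 29. GLS2 (ENSG00000135423.12) spans chr12:56470944-56488414 and GLUL (ENSG00000135821.18) chr1:182381704-182392206. GLUD1 (ENSG00000148672.8) spans chr10:87050486-87094866 and OAT (ENSG00000065154.11) chr10:124397303-124418976. GOT1 (ENSG00000120053.11) lies at chr10:99396870-99431569 and GOT2 (ENSG00000125166.12) at chr16:58707131-58734357. ALDH18A1 (ENSG00000059573.8) lies at chr10:95605929-95656706 and PYCR1 (ENSG00000183010.16) at chr17:81932384-81942412. The counts of a gene cover its exons, and strand use in the counting is not given in the sources used here. GLUD1 shares 464 exon bases (13.2%) with SHLD2 on the opposite strand, which had 9039 counts over the 9 libraries, and PYCR1 shares 408 (14.1%) with MYADML2 on its own strand, which had 31. Opposite-strand genes that are absent from the count table overlap others. GOT1 shares 651 exon bases (19.3%) with AL391684.1, PYCR1 450 (15.6%) with AC145207.4 and GOT2 162 (4.3%) with AC092378.1. The part of these overlaps in the counts was not tested. GENCODE names 5 pseudogenes after GLUD1, 4 after GLUL and 4 after GOT2, and reads shared with such copies would make their values uncertain.

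Promoter windows from RefSeq (GRCh38.p14, 250 bases before to 50 after the start) matched 7 of the 8 genes. PYCR1 had no window and was not searched. The windows are shown because 2 of them hold the binding word of a factor known for amino acid genes. The words searched on both strands were 3: the ATF4 composite site TGATGNAA, which is in 3.62% of all 35116 windows, the E-box CACGTG bound by MYC, in 7.26%, and the cyclic AMP response element TGACGTCA, in 1.85%. The words do not overlap one another in these windows. GOT1 holds TTGCATCA, the reverse complement form of the ATF4 word, with its first base at −198 from the start, and ALDH18A1 holds CACGTG at −136. In the GOT1 window all 250 bases before the RefSeq start lie in exons annotated by GENCODE. Only 30 bases around the match are therefore printed for GOT1, and they lie inside the GOT1 span given above. The other 5 windows hold none of the 3 words. A match is a description of the letters and not a measured site. Capitals mark the match in the 2 sequences below that hold one. GLUD1, glutamate dehydrogenase, and GOT2, the mitochondrial partner of GOT1, are printed for comparison. All are read 5′ to 3′ on the minus strand. GOT1 covers chr10:99430804-99430833, ALDH18A1 chr10:95656712-95656961, GLUD1 chr10:87094867-87095093 and GOT2 chr16:58734358-58734566.
GOT1: aattgcattggTTGCATCAttctcggcagc
ALDH18A1: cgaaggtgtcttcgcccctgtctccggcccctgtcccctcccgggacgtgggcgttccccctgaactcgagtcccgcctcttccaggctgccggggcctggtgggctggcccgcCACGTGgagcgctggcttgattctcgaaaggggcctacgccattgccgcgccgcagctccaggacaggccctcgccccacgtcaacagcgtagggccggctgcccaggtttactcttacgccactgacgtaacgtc
GLUD1: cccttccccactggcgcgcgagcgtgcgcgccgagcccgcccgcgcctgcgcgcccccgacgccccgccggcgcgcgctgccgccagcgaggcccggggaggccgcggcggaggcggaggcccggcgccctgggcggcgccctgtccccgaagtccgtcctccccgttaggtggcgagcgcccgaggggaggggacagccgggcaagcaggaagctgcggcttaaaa
GOT2: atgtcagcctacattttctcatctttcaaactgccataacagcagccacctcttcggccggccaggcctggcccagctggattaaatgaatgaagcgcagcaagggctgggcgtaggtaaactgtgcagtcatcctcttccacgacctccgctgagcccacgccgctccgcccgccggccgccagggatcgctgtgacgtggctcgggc
The GLUD1 stretch is 80.6% G and C over 227 bases, against 68.8% over 250 bases in ALDH18A1 and 61.2% over 209 bases in GOT2.

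**Figure D1:**
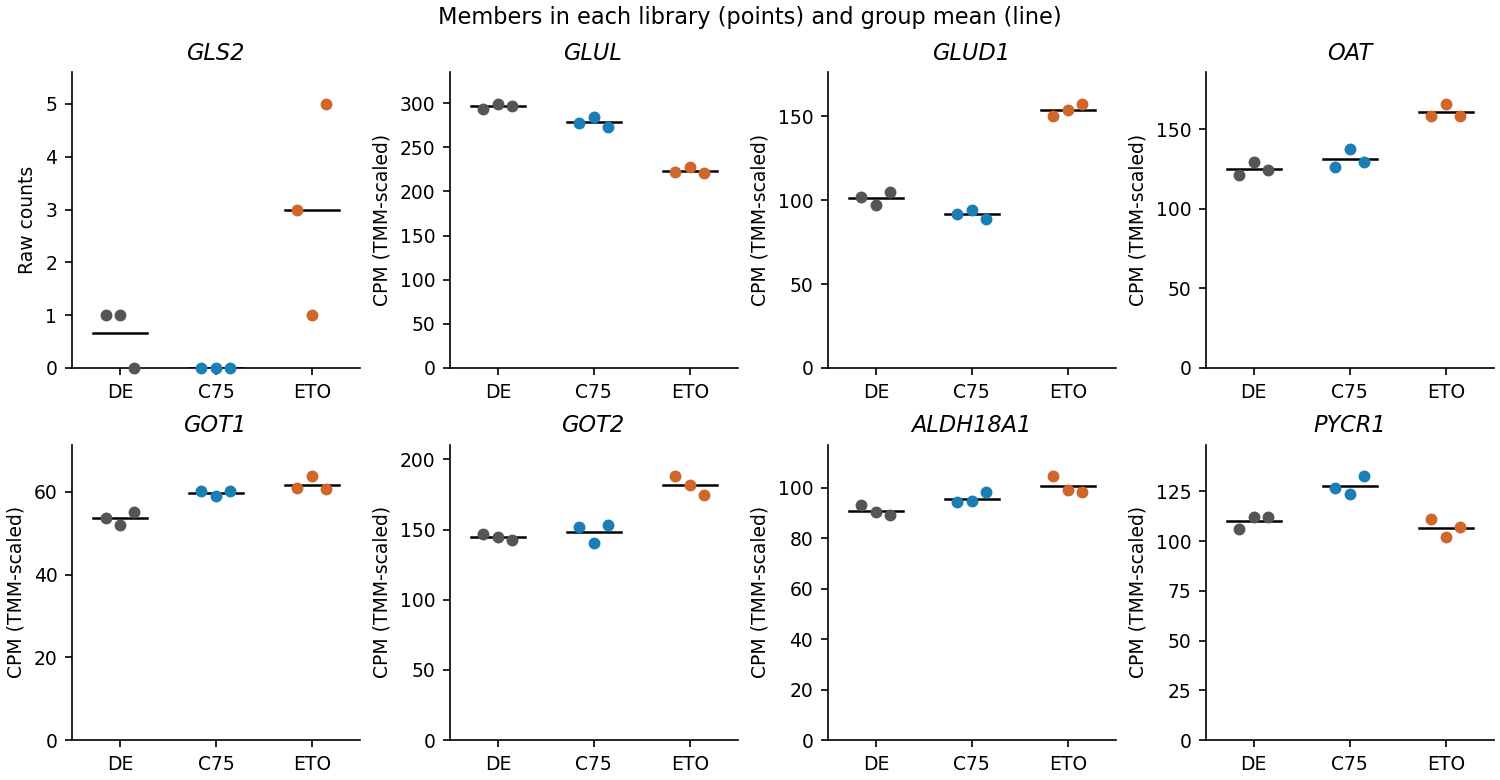
Level of each of the 8 genes in each library: points are libraries, lines are group means, the vertical axis is CPM scaled by TMM factors (raw counts for GLS2) and starts at 0. GLUD1, GOT2 and OAT stand highest in the ETO libraries, GLUL stands lowest there, and PYCR1 stands highest in the C75 libraries.

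Among the enzymes of glutamine, GLUL was abundant and GLS2 was close to undetected. GLS2, the liver-type glutaminase, had 1, 1 and 0 raw counts in the DE libraries, 0 in each of the C75 libraries and 3, 1 and 5 in the ETO libraries, 11 in all. Counts above 1 appeared in 2 of the ETO libraries only, and DE and ETO overlap at 1 count. Summed over a group this is 0.0348 CPM in DE (95% exact Poisson interval 0.00421 to 0.126) and 0.15 CPM in ETO (0.0685 to 0.284), a ratio of 4.3 with an interval of 0.891 to 40.9. No GLS2 read was counted in C75, which allows up to 0.0554 CPM (3 counts over the group). The measured ETO level was 2.7-fold above that limit, a value that leaves out the counting error of the 9 ETO counts. The exact Poisson interval used for DE and ETO reaches 0.0681 CPM in C75, next to the lower end of 0.0685 in ETO. Intervals and limits cover counting error only. GLS2 fell under the filter on low counts and was not tested. When that filter was dropped, edgeR gave it an adjusted p of 0.31 for C75 vs DE, 0.18 for ETO vs DE and 0.018 for C75 vs ETO. The gene shares 3193 of its 4141 exon bases (77.1%) with SPRYD4 on the opposite strand, which had 1245 counts over the 9 libraries, and 714 of its bases belong to no other gene of the table. How reads in shared bases were assigned is not given in the sources used here, and the part of this overlap in the low count was not tested.

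GLUL, glutamine synthetase, was at 293.4, 299.1 and 296.7 CPM in DE, 277.9, 284.5 and 273.5 in C75 and 221.5, 227.3 and 220.6 in ETO. DE libraries were highest, ETO libraries lowest, and no group overlapped another. GLUL fell by 0.41 on the log2 scale in ETO against DE (SE 0.032, 1.33-fold, edgeR adjusted p = 2.0e-13), and by 0.64 with a correction for GC content and gene length. The difference between C75 and DE was small, −0.09 (95% interval −0.15 to −0.02, adjusted p = 0.016), and it came to 0.01 (adjusted p = 0.66) with that correction.

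GLUD1, glutamate dehydrogenase, which releases ammonia from glutamate in mitochondria, stood apart in ETO. Its level was 102.2, 97.3 and 104.9 CPM in DE, 91.8, 93.9 and 88.9 in C75 and 150.1, 153.5 and 157.4 in ETO. The ETO libraries are all far above the others, and the C75 libraries all lie below the DE libraries by a narrow margin. GLUD1 was 1.51-fold higher in ETO than in DE (log2 fold change 0.60 ± 0.039 SE, 95% interval 0.52 to 0.68, edgeR adjusted p = 1.1e-15). Tested against a 1.5-fold change rather than against no change, the difference did not pass (adjusted p = 0.62). It was the largest change of the 7 genes tested in ETO vs DE, but with the GC content and length correction GLUL changed more, −0.64 against 0.52 for GLUD1. Between C75 and DE it was −0.15 ± 0.041 (adjusted p = 0.002), a call that was lost with the GC content and length correction (−0.08, adjusted p = 0.068). The intronless paralog GLUD2 stayed under 1 CPM in every library and was not called against DE in C75 (adjusted p = 0.36) or ETO (adjusted p = 0.43).

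The aspartate aminotransferases move amino groups between glutamate and aspartate and are parts of the malate-aspartate shuttle. GOT1, the cytosolic enzyme, was at 53.6, 52.0 and 55.2 CPM in DE, 60.2, 59.1 and 60.1 in C75 and 60.9, 63.8 and 60.6 in ETO. Both inhibitor groups lie above DE without overlap, by 0.16 ± 0.047 (log2, edgeR adjusted p = 0.0045) in C75 and 0.20 ± 0.047 (adjusted p = 2.3e-04) in ETO. GOT2, the mitochondrial enzyme, was at 146.7, 144.8 and 142.4 CPM in DE, 151.6, 140.8 and 153.3 in C75 and 188.1, 181.8 and 174.7 in ETO. C75 libraries overlap DE libraries and ETO libraries stand above both. GOT2 rose 1.26-fold in ETO (0.33 ± 0.038, adjusted p = 2.2e-09). Against DE it was not called in C75 (0.04, 95% interval −0.04 to 0.12, adjusted p = 0.4). That last value is −0.01 with upper-quartile scaling and is called at 0.09 (adjusted p = 0.025) with the GC content and length correction.

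On the proline side, OAT and ALDH18A1 both feed pyrroline carboxylate. OAT, ornithine aminotransferase, was at 121.5, 129.5 and 124.4 CPM in DE, 126.6, 137.8 and 129.3 in C75 and 158.2, 166.0 and 158.4 in ETO. Its C75 and DE libraries overlap, and the ETO libraries are higher than all of them. OAT rose 1.29-fold in ETO (log2 0.36 ± 0.039 SE, edgeR adjusted p = 3.7e-10). In C75 it was not called (0.07, 95% interval −0.01 to 0.15, adjusted p = 0.12), though it was called at 0.20 (adjusted p = 5.4e-06) with the GC content and length correction.

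ALDH18A1, pyrroline carboxylate synthase, which commits glutamate to proline, was at 93.0, 90.5 and 89.4 CPM in DE, 94.2, 94.7 and 98.3 in C75 and 104.6, 99.0 and 98.3 in ETO. The steps are small, with DE libraries lowest in each case. It rose by 0.15 ± 0.040 on the log2 scale in ETO (edgeR adjusted p = 0.0017), and by 0.09 with the GC content and length correction. In C75 it differed from DE by 0.07 (95% interval −0.01 to 0.16, adjusted p = 0.12), which became a call at 0.13 (adjusted p = 0.0029) with the same correction.

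PYCR1, the mitochondrial pyrroline carboxylate reductase, was the only one of the 7 genes tested that was called higher in C75 than in both other groups. Its level was 106.0, 111.9 and 112.3 CPM in DE, 126.9, 123.8 and 132.6 in C75 and 110.9, 102.3 and 107.2 in ETO. All C75 libraries stand above all others, and ETO libraries overlap DE libraries. PYCR1 rose by 0.22 ± 0.041 on the log2 scale in C75 (1.16-fold, edgeR adjusted p = 2.4e-05). In ETO it was −0.04 (95% interval −0.13 to 0.04, adjusted p = 0.36), and 0.11 (adjusted p = 0.0046) with the GC content and length correction.

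PYCR3, the cytosolic reductase, which was not among the 8 enzymes, averaged 17.7 ± 1.01 CPM in DE, 28.3 ± 1.63 in C75 and 11.2 ± 0.472 in ETO (SD, n = 3). C75 is highest and ETO lowest, with no overlap. PYCR3 was 1.58-fold lower in ETO than in DE (−0.66 ± 0.084 on the log2 scale, edgeR adjusted p = 1.4e-08). In C75 it was 1.59-fold higher (adjusted p = 1.4e-09). Tested against a 1.5-fold change, neither difference passed (edgeR adjusted p = 0.28 in ETO and 0.29 in C75).

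Counted together, 4 of the 7 genes tested were called in C75 vs DE, where 63.1% of all genes were called: GOT1 and PYCR1 were higher (31.2% of all genes) and GLUD1 and GLUL lower (31.9%). With the GC content and length correction the count was 5 higher and 0 lower, and the share of all calls that were higher moved from 49.4% to 60.3%. In ETO vs DE, 6 of 7 were called, where 69.9% of all genes were called: GLUD1, GOT1, GOT2, ALDH18A1 and OAT rose (34.7% of all genes) and GLUL fell (35.3%). The counts themselves were not tested, and nothing particular to these enzymes is read from them. Without overlap between libraries, 3 of the 7 were higher and 2 lower in C75 (32.6% and 33.2% of all genes), and 5 were higher and 1 lower in ETO (35.9% and 35.8%). None of the 7 passed a test against a 1.5-fold change in either comparison with edgeR's glmTreat (0 at an unadjusted p under 0.05, and 0 with DESeq2), where 10.4% of all genes passed in C75 and 18.9% in ETO. The median size of the log2 change over the 7 genes was 0.09 in C75 and 0.33 in ETO, beside 0.272 and 0.335 over all genes tested. The 2 comparisons share the DE libraries.

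**Figure D2:**
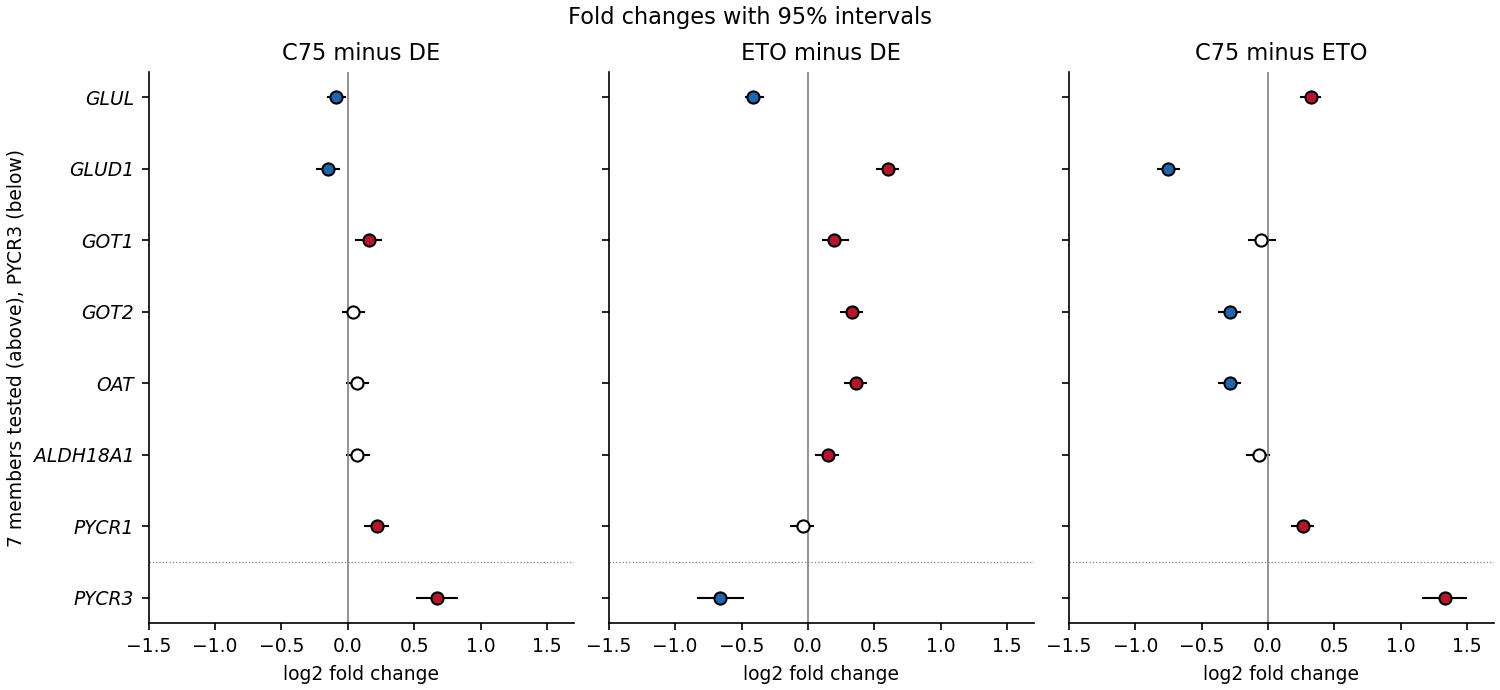
Log2 fold change in the 3 comparisons for the 7 genes tested (above the dotted line) and for PYCR3 (below it), with 95% intervals from edgeR; red points were called higher, blue points lower and white points not called. GLUD1 lies at −0.15 in C75 vs DE, 0.60 in ETO vs DE and −0.75 in C75 vs ETO.

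Set directly against each other, the inhibitor groups differed in 5 of the 7 genes, where 79.2% of all genes were called: 2 were higher in C75 (39.9% of all genes) and 3 lower (39.2%). By libraries without overlap, 2 of the 7 were higher in C75 and 5 lower (40.3% and 39.7% of all genes). The margin was narrow for GOT1, with a highest C75 library at 60.2 CPM and a lowest ETO library at 60.6. For ALDH18A1 both stood at 98.3 CPM when rounded. GLUD1 was 1.68-fold lower in C75 than in ETO (−0.75 ± 0.039 on the log2 scale, edgeR adjusted p = 1.7e-18) and was the 1 gene of the 7 to pass the test against a 1.5-fold change (adjusted p = 9.0e-05), which 33.0% of all genes passed. With the GC content and length correction the 1 gene to pass was GLUL instead (log2 0.65, adjusted p = 0.01), and GLUD1 did not (−0.60, adjusted p = 0.36). GOT2 was 1.22-fold lower in C75 (−0.29, adjusted p = 2.1e-08) and OAT 1.23-fold lower (−0.29, adjusted p = 2.5e-08). GLUL was 1.25-fold higher in C75 (0.32, adjusted p = 5.8e-11) and PYCR1 was higher too (0.26, adjusted p = 6.6e-07). The same correction brought GLUL to 0.65, PYCR1 to 0.09 and OAT to −0.10, and all 3 stayed called. GOT1 was not called (−0.05, 95% interval −0.14 to 0.05, adjusted p = 0.35). ALDH18A1 was not called either (−0.07, −0.16 to 0.01, adjusted p = 0.094), although it was called with median-of-ratios scaling (−0.09, adjusted p = 0.041), with upper-quartile scaling (−0.14, adjusted p = 0.0019), with a stricter filter (−0.11, adjusted p = 0.015) and when C75 replicate 3 was left out (−0.10, at 0.039). Its sign turned with the GC content and length correction (0.04, adjusted p = 0.34). The GC content and length correction moved the share of higher calls over all genes from 50.5% to 61.2% and the median of all genes to 0.168. The median size of the change was 0.29 over the 7 genes and 0.486 over all genes tested.

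Levels can be compared between genes only per length, here as CPM per kilobase of the deposited gene length. In DE, GOT2 at 38.4, PYCR1 at 38.1 and OAT at 36.9 headed the order and did not differ beyond the spread of their libraries. GLUL at 32.8, GLUD1 at 28.8, ALDH18A1 at 24.2 and GOT1 at 15.9 followed in separate steps, and GLS2 was last at 0.00842. In C75, PYCR1 stood alone at the top with 44.3, and GLUD1 at 26.0 and ALDH18A1 at 25.4 overlapped. In ETO, GOT2 at 48.2 and OAT at 47.5 overlapped, GLUD1 moved up to the third place with 43.7, and GLUL moved down to 24.7, next to last of the 7. These places depend on the length used. For GLUL, the merged exons are 9032 bases long and the principal transcript 4719, and per kilobase of principal transcript it led in DE with 62.8, where its libraries overlapped those of OAT at 61.1. On that scale PYCR1 at 67.1 overlapped OAT at 64.1 in C75, and in ETO GLUD1 at 50.6 came after PYCR1 at 56.1.

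**Figure D3:**
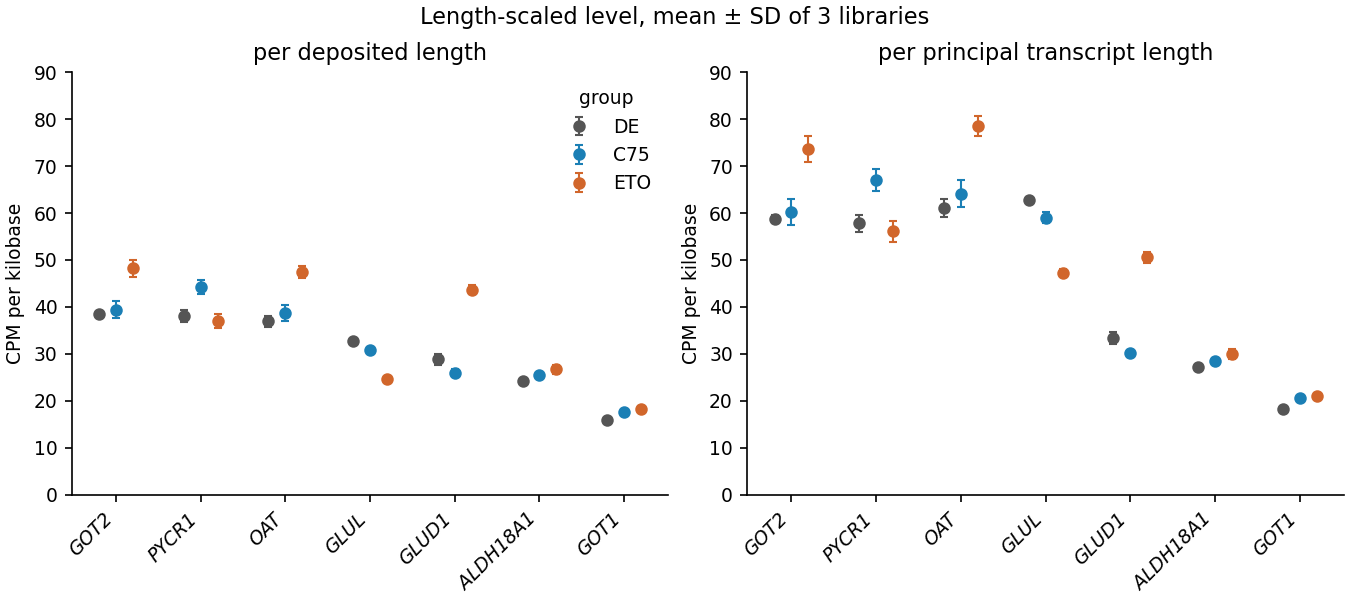
Mean level of the 7 genes tested in each group, in CPM per kilobase of the deposited gene length (left) and of the principal transcript (right); points are means, bars are SD over 3 libraries and the axes start at 0. GLUL stands below GOT2, PYCR1 and OAT in DE on the left and beside them on the right.

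Ratios taken within a library compare partner enzymes without the scaling between libraries. Their size depends on the length used, here the deposited gene length, but their fold difference between groups does not. The ratio of GOT2 to GOT1 per kilobase was 2.45, 2.49 and 2.31 in DE, 2.25, 2.13 and 2.28 in C75 and 2.76, 2.55 and 2.58 in ETO. The groups do not overlap, and the means were 2.42 ± 0.0965 in DE, 2.22 ± 0.0795 in C75 and 2.63 ± 0.116 in ETO (SD, n = 3). ALDH18A1 to OAT was 0.655 ± 0.0309 in DE, 0.657 ± 0.0341 in C75 and 0.563 ± 0.0294 in ETO, with only ETO apart. The two-sided exact permutation test gave p = 0.1 wherever groups did not overlap, the smallest value that 3 against 3 libraries allow, and p = 1 for ALDH18A1 to OAT between C75 and DE.

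**Figure D4:**
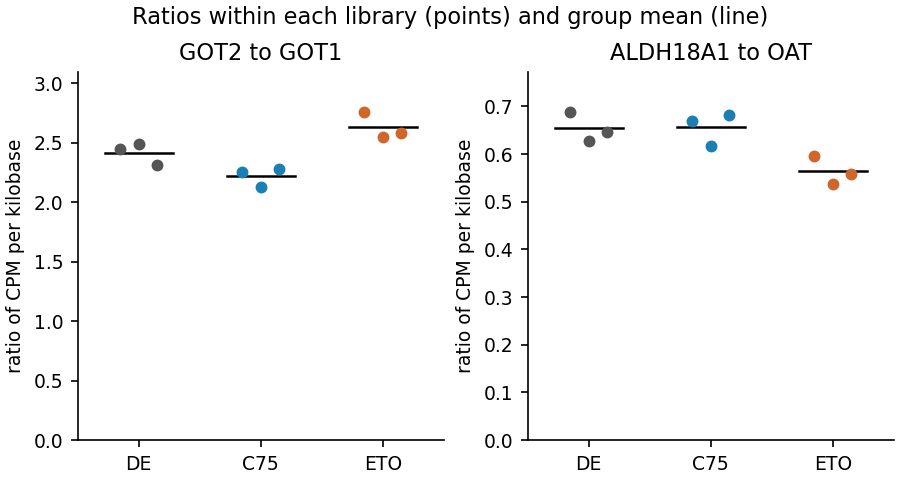
Ratio of CPM per kilobase of the deposited gene length between partner enzymes in each library (points) with the group mean (line), on axes that start at 0. The ratio of GOT2 to GOT1 is 2.55 to 2.76 in the ETO libraries and at most 2.49 in the others.

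Around these 8 enzymes, a list of 62 further genes of glutamine, glutamate, proline and arginine metabolism was read, of which 56 passed the filter on low counts. In C75 vs DE, 21 were called higher and 19 lower, beside 31.2% and 31.9% of all genes, with a median log2 change of 0.01 and a median size of 0.36 (0.272 over all genes). In ETO vs DE, 32 were higher and 16 lower, beside 34.7% and 35.3% of all genes, with a median of 0.25 and a median size of 0.51 (0.335 over all genes). The counts of the separate lists below are to be read against the same shares of all genes. Whether any list departs from those shares was not tested, and nothing particular to a list is read from them. Past 1.5-fold were 6 higher and 7 lower genes in C75 (3.53% and 6.84% of all genes) and 14 higher and 5 lower genes in ETO (11.6% and 7.31%).

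Of the 11 plasma membrane carriers of glutamine, glutamate and their exchange partners, 4 were higher and 6 lower in C75, and 8 were higher and 2 lower in ETO. SLC38A1, which brings glutamine in with sodium, rose 1.90-fold in ETO, from 208.0 to 394.6 CPM (edgeR adjusted p = 2.4e-23). SLC7A5, which trades glutamine for leucine and other large amino acids, rose 1.67-fold in C75, from 1219 to 2032 CPM (adjusted p = 1.5e-20). SLC38A5, another sodium-coupled glutamine carrier, fell against DE in C75 (1.95-fold, adjusted p = 4.0e-17) and in ETO (1.74-fold, adjusted p = 1.3e-15). SLC1A3, a glutamate carrier, was at 10.2, 8.46 and 9.63 CPM in DE, 1.41, 1.6 and 0.989 in C75 and 31.6, 33.1 and 28.7 in ETO. It had the largest gap between the inhibitor groups of any carrier on the list, 23.33-fold.

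Inside mitochondria and along the malate-aspartate shuttle, 3 of 8 genes were higher and 1 lower in C75, and 2 higher and 4 lower in ETO. The lower gene in C75 was SLC25A12, an aspartate-glutamate carrier, which fell 2.93-fold (edgeR adjusted p = 9.0e-08) and rose 2.05-fold in ETO (adjusted p = 2.8e-07). Its level was low, 3.68 CPM in DE. SLC25A13, its paralog, fell 1.42-fold in ETO.

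The 10 amidotransferases, which hand the amide nitrogen of glutamine to nucleotides, hexosamines and asparagine, held 1 higher and 6 lower genes in C75, and 8 higher and 2 lower in ETO. ASNS, asparagine synthetase, was at 56.6, 62.3 and 67.4 CPM in DE, 25.4, 29.2 and 27.8 in C75 and 222.1, 230.4 and 217.2 in ETO. The groups are far apart, with ASNS 2.26-fold lower in C75 (edgeR adjusted p = 3.5e-18) and 3.60-fold higher in ETO (adjusted p = 2.7e-27). CTPS1, which makes cytidine triphosphate, was the 1 amidotransferase called higher in C75, 1.17-fold.

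Among the 8 tested transaminases other than the GOT enzymes and OAT, 5 were higher and 2 lower in C75, and 4 higher and 3 lower in ETO. PSAT1, the serine pathway transaminase, rose 3.16-fold in ETO, from 115.4 to 364.4 CPM (edgeR adjusted p = 3.6e-29), and fell 1.38-fold in C75 (adjusted p = 5.5e-12). BCAT2, the mitochondrial branched-chain transaminase, went the other way, 1.68-fold higher in C75 (adjusted p = 9.2e-13) and 2.25-fold lower in ETO (adjusted p = 2.3e-16). Of 5 tested enzymes that use glutamate elsewhere, 1 rose and 1 fell in C75, where GCLM, a subunit of the glutathione-making ligase, rose 1.66-fold and GAD1, which makes GABA, fell 1.91-fold. In ETO, 3 rose and 1 fell. GAD1 rose 2.01-fold there (adjusted p = 6.4e-15) and GCLM rose 1.40-fold (adjusted p = 2.5e-09), while ALDH5A1 fell 1.27-fold (adjusted p = 0.037).

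Of 8 tested genes of proline, ornithine and arginine besides the members, 6 were higher and 1 lower in C75, and 4 higher and 3 lower in ETO. ODC1, which turns ornithine into putrescine and so competes with OAT for it, was at 135.4, 143.8 and 143.1 CPM in DE, 306.3, 311.7 and 310.7 in C75 and 149.2, 152.1 and 144.4 in ETO. The C75 libraries stand 2.20-fold above DE (edgeR adjusted p = 2.8e-24). The ETO libraries lie just above the DE libraries and were not called (1.06-fold, adjusted p = 0.051). ASS1, argininosuccinate synthase, rose 1.86-fold in ETO, from 35.1 to 65.2 CPM (adjusted p = 3.3e-16). ARG2, the mitochondrial arginase that makes ornithine, fell 1.56-fold in C75 and rose 1.55-fold in ETO (adjusted p = 8.3e-07). ALDH4A1, which oxidises pyrroline carboxylate back to glutamate, was not named by rule and was chosen after its values were seen: it was at 8.24 ± 1.56 CPM in DE, 12.8 ± 0.539 in C75 and 13.7 ± 1.11 in ETO (SD, n = 3), called higher in both inhibitor groups.

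Of 4 regulators of these genes, 1 was higher and 1 lower in C75, and 2 higher and 1 lower in ETO. MYC, a transcription factor known to raise glutamine use, was at 38.9, 43.0 and 39.1 CPM in DE, 21.6, 21.3 and 24.5 in C75 and 122.5, 111.3 and 113.6 in ETO. It fell 1.79-fold in C75 (edgeR adjusted p = 1.9e-13) and rose 2.88-fold in ETO (adjusted p = 1.1e-23), and no libraries of different groups overlap. ATF4, the factor of the amino acid response, rose 1.18-fold in C75 (adjusted p = 2.1e-08) and 1.09-fold in ETO (adjusted p = 9.8e-04).

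Between the inhibitor groups, 20 of the 56 genes were higher in C75 and 27 lower (39.9% and 39.2% of all genes), with 10 and 20 of them past 1.5-fold (14.5% and 18.6% of all genes). The median log2 difference was −0.09 and the median size 0.75 (0.486 over all genes). ASNS was 8.13-fold lower in C75 than in ETO, MYC 5.16-fold, PSAT1 4.35-fold, GAD1 3.84-fold and ARG2 2.41-fold. Higher in C75 were BCAT2 (3.78-fold), ODC1 (2.08-fold), the glutamate carrier SLC1A1 (1.93-fold), the malate and alpha-ketoglutarate carrier SLC25A11 (1.75-fold), the mitochondrial deacetylase SIRT3 (1.33-fold), GCLM (1.19-fold) and NADSYN1 (1.17-fold), which makes NAD. PYCR3 was 2.52-fold higher in C75.

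**Figure D5:**
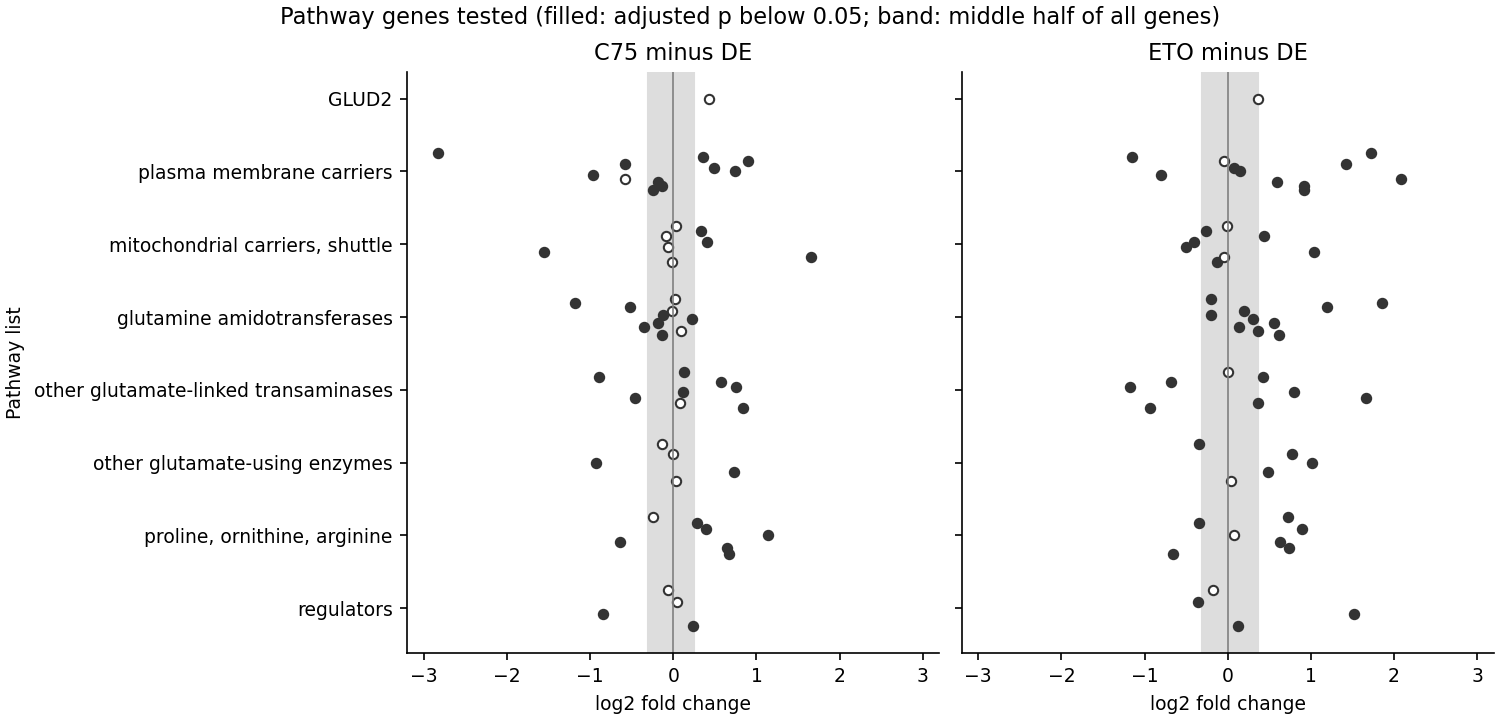
Log2 fold change against DE of tested genes around the 8 enzymes, by list, in C75 (left) and ETO (right). Each point is a gene, filled where called by edgeR, and the band runs from the 25th to the 75th percentile of all genes tested; SLC1A3, at −2.83, is the leftmost point in C75.

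The genes whose levels ran most like each enzyme over the 9 libraries were ranked by Pearson correlation of log2 CPM among 11039 genes. The 9 points are 3 tight groups of 3 that share the scaling, so the values describe the relative spacing of the group means. They leave out the size of the change. For GLUD1 the closest were GOLM1 and ZNF431 (r = 0.998 each), and 1038 genes exceeded 0.95. For GLUL they were B3GNT5 (0.998) and EHHADH (0.997), with 426 genes over 0.95. In ETO vs DE, EHHADH changed by −2.74 on the log2 scale and GLUL by −0.41. OAT ran with MPZL1 (0.992) and CDC6 (0.989), GOT1 with ZNF3 (0.984) and USP7 (0.980), and GOT2 with FAM83B (0.982) and UBE4B (0.981). PYCR1 ran with TMEM222 (0.985) and PFN1 (0.981). ALDH18A1 had 1 gene over 0.95, RPRD1B (0.953), followed by OTUD7A (0.944). GLS2 had too few counts for such a value.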

How the data were processed

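Total RNA from 9 HUES8 libraries was sequenced. The authors deposited raw counts, 1 row per gene symbol, and gene lengths. The submitters' processing notes name HISAT2 2.1.0, featureCounts 1.6.4 and GRCh38 without a role. For annotation, strand setting and reads in several genes, the choice is not given in the sources used here. All symbols matched GENCODE release 29, and 19875 (99.84%) had a deposited length equal to their merged exons. Per-sample totals ran from 17379711 to 21510997 counts. Replicate libraries differed beyond counting noise (chi-square per degree of freedom 1.79 to 3.37).

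The counts were tested with edgeR 4.0.16 in R 4.3.3: filterByExpr by group left 14177 genes (99.962% of counts), libraries were scaled by TMM, and quasi-likelihood F-tests used all 9 libraries with group as the term. Genes with a Benjamini-Hochberg adjusted p below 0.05 over all genes tested were called, and glmTreat tested against 1.5-fold. CPM are TMM-scaled. The 95% intervals derive from the F statistics, and means are ± SD over 3 libraries. DESeq2 1.42.0, other scalings and filters, a 6-library fit, a replicate block and each library left out were alternatives. The correction for GC content and gene length, and the principal transcript length, were chosen after seeing the data. The members and lists were chosen with earlier results of these data known. Besides the members, the text names from each list the most significant called gene in each direction; some genes of the lists are counted but not reported singly here. GLUL to GLS2 ratios were not computed because of counts of 0.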

Additional observations from a re-analysis of the deposited data

How the results depend on the processing

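Of the log2 fold changes of single enzymes under the alternatives, 344 kept their direction and their side of the threshold. Without a turn of sign, 8 gained a call and 1 lost it, and 4 turned sign. The alternatives include fits without a library of the group outside the comparison, where little could change. The sign turns were GOT2 in C75 vs DE with upper-quartile factors (−0.01), and, with the GC content and length correction, GLUL in C75 vs DE (0.01), PYCR1 in ETO vs DE (0.11) and ALDH18A1 in C75 vs ETO (0.04). Of these, GLUL also lost its call (edgeR adjusted p = 0.66) and PYCR1 gained a call (edgeR adjusted p = 0.0046), both with that correction. That correction moved the median of all genes to 0.070, −0.078 and 0.168 in C75 vs DE, ETO vs DE and C75 vs ETO, so changes of this size depend on it; the cause was not tested. GOT1 was called in C75 vs ETO with upper-quartile factors (−0.12). With no filter, 2 enzymes passed 1.5-fold in C75 vs ETO, the added one being GLS2, tested only there. The log2 difference of the ALDH18A1 to OAT ratio between C75 and DE, 0.00 with all libraries, ran from −0.02 to 0.05 when single libraries were left out.

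Same-numbered libraries showed little shared deviation from their group means: over 9 pairs of groups and numbers the correlations ran from −0.027 to 0.05, none over 0.1. Even so, 6 of the 9 libraries matched their own number best. Whether that is more than unpaired libraries would give was not tested. With a replicate block the enzymes called were 4, 6 and 5, as without it, among 8965, 9931 and 11230 genes called.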

Other observations

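PRODH, proline dehydrogenase, which opens the breakdown of proline, was under the filter on low counts and uneven within groups. It had 36, 2 and 6 counts in the DE libraries, 0, 1 and 1 in C75 and 28, 4 and 8 in ETO. Replicate 1 holds most of the counts in DE and in ETO. ARG1, the liver arginase, had 8, 4 and 10 counts in DE, 8, 25 and 22 in C75 and 7, 1 and 0 in ETO. PRODH2 and OTC had no count in any library.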
